A study of Arabidopsis thaliana with 8 samples.

Results

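The loci described here lie in the pericentromeric windows of the 5 Arabidopsis thaliana chromosomes, the gene-poor blocks on either side of each centromere. A locus was taken as a member where its start fell within 13 to 17 Mb on chromosome 1, 2 to 5.5 Mb on chromosome 2, 12 to 15.5 Mb on chromosome 3, 2.5 to 5.5 Mb on chromosome 4 or 10.5 to 14 Mb on chromosome 5, in TAIR10 coordinates. This gave 3933 members of the 34759 loci in the deposited table, namely 747, 896, 818, 692 and 780 on chromosomes 1 to 5, and 30590 other loci of the same chromosomes served for comparison. The rule used position only and no measured value.

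RNA was sequenced from wild type Col-0 (wt) and from the mutant clf-28 in the same accession, in which an insertion disrupts CURLY LEAF (CLF), with 1 library for each genotype in roots, leaves, flowers and siliques. Roots and leaves (the aerial part) came from plants aged 2 weeks on MS plates, flowers and siliques from plants aged 5 weeks in soil, all under long days at 22 °C. CLF encodes a histone methyltransferase of Polycomb repressive complex 2. No group had a replicate, so every comparison below rests on 8 libraries, and the labels do not say how many plants went into each. The expression value is FPKM, fragment abundance scaled to transcript length and to the mapped fragments of the library, so levels of different genes can be set side by side per length.

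Pericentromeres in plants are built largely of transposons and their remains, packed as constitutive heterochromatin that carries DNA methylation and methylation of histone H3 at lysine 9. Polycomb repression is a separate system: its mark, trimethylation of histone H3 at lysine 27, lies mainly over genes of the arms and is laid down in part by CLF. Functional genes are scattered among the silent pericentromeric elements, more often towards the edges than near the centromere.

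Sequence upstream of 4 members is shown because these genes carried the differences between genotypes or organs described below: RAP2.6 and OPR3 stood higher in clf-28, SAPX stood lower, and GRP3 lay in a cluster of genes highest in different organs. Each is the 250 bases before the gene's start in RefSeq (TAIR10.1), read 5′ to 3′ on the gene's strand, from chr1:16263555-16263804 (+), chr2:2362376-2362625 (-), chr4:5314621-5314870 (+) and chr2:2025741-2025990 (+). Capitals mark the G-box CACGTG and the TATA element TATAAA or its reverse complement.
RAP2.6: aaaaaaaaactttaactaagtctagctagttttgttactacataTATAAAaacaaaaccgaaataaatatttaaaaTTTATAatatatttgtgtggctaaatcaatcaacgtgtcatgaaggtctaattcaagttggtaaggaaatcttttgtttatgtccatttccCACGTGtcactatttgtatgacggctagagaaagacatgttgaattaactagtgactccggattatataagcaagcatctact
OPR3: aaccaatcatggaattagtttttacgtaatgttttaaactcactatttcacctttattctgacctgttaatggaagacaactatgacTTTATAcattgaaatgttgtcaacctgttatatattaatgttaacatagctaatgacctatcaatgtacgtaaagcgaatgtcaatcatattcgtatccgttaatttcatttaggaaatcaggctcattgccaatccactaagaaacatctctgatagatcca
SAPX: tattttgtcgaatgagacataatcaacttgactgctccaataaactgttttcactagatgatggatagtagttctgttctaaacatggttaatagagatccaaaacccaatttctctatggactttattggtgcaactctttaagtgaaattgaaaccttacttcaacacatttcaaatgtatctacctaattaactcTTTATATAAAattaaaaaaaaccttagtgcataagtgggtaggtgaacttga
GRP3: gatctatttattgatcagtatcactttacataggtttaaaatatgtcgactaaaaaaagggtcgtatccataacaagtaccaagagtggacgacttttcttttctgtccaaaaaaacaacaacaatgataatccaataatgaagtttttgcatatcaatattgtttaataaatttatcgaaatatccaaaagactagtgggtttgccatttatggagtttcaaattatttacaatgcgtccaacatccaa
The RAP2.6 window held 1 G-box, the SAPX window held overlapping TATAAA matches on both strands, and the GRP3 window held none of the motifs searched. Across 30687 upstream windows of the same length on the 5 chromosomes, CACGTG occurred in 5.84%, TATAAA in 45.9%, the telobox AAACCCTA in 4.76% and the GA repeat GAGAGAGA in 4.83%, counting both strands. Protein-coding members that were detected held TATAAA in 57.3% of 445 windows, and those that were not detected held it in 38.7% of 388. Protein-coding loci elsewhere held it in 47.8% of windows when detected and in 48.8% when not. The telobox stood in 3.15% of detected and 7.47% of undetected protein-coding members, beside 3.55% and 10.8% elsewhere. Median GC content of the upstream windows was 28.8% for detected and 34.8% for undetected protein-coding members, beside 30.8% and 31.6% elsewhere. These matches describe letters in a window, not bound sites.

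Marker genes outside the windows were compared with the organ labels. IRT1, an iron transporter of the root surface, stood at 373 and 159 FPKM in wt and clf-28 roots. GRP17, a pollen coat protein, reached 563 and 333 FPKM in wt and clf-28 flowers and 6.37 FPKM or less elsewhere. The floral identity gene PI stood at 238 and 178 FPKM in flowers and at 6.02 FPKM or less elsewhere, but AP3, another such gene, had 119 and 78.9 FPKM in flowers beside 78.6 and 33.8 FPKM in siliques. CA1, a carbonic anhydrase gene of green tissue, had 1092 and 982 FPKM in leaves, 613 and 372 FPKM in flowers, 1478 and 260 FPKM in siliques and 1.08 and 0.391 FPKM in roots, so it did not set leaves apart from siliques. The seed oil-body gene OLEO1 stood at 1.74 FPKM in wt siliques and at 4714 in clf-28 siliques, so the 2 silique libraries differed in seed transcripts; it also stood at 7.23 FPKM in wt roots and at 0.00634 in clf-28 roots. The CLF locus itself was at 17.2, 6.57, 9.99 and 6.53 FPKM in wt roots, leaves, flowers and siliques and at 7.84, 5.50, 14.7 and 15.1 in clf-28; reads on either side of an insertion count towards a locus, so these totals did not check the genotype.

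Most members were pseudogenes and most stayed under 1 FPKM in every library. RefSeq classed 2549 members (64.8%) as pseudogenes and 883 (22.5%) as protein coding, whereas 82.5% of the other loci were protein coding and 4.50% were pseudogenes. A further 210 members were transcribed pseudogenes and 51 were non-coding RNAs, while 109 had no gene name, 72 a name outside RefSeq and 59 several merged names. A locus was called detected at 1 FPKM or more with a usable status in at least 1 library. By that measure 598 members (15.2%) were detected, beside 23639 (77.3%) of the other loci. A value of 0 in all 8 libraries was listed for 1746 members (44.4%) and for 5.56% of the other loci.

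The gap was wide in some classes and narrow in others. Among protein-coding loci alone, 459 of 883 members (52.0%) were detected, beside 86.0% elsewhere. Pseudogenes were detected at 41 of 2549 members (1.61%) and at 133 of 1377 loci elsewhere (9.66%), and transcribed pseudogenes at 15 of 210 (7.14%) and 26.1%. Non-coding RNAs were close, with 14 of 51 members detected (27.5%) and 30.7% elsewhere, as were loci with no gene name, with 32 of 109 (29.4%) and 33.4%. Among detected protein-coding loci the median of members lay between 13.4 and 16.7 FPKM over the libraries, beside 12.6 to 14.5 FPKM elsewhere. Within each library the median of members was the higher, for example 16.5 and 14.2 FPKM in wt roots and 13.4 and 13.1 FPKM in wt siliques. The difference was not tested. In a single library, 364 to 458 members were detected, 9.29% to 11.7% of those with a usable status. All members together held 2.19% to 3.36% of the FPKM summed over the chromosomes. In bulk organs, transcription in fewer cells and less RNA per cell cannot be told apart.

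**Figure D1:**
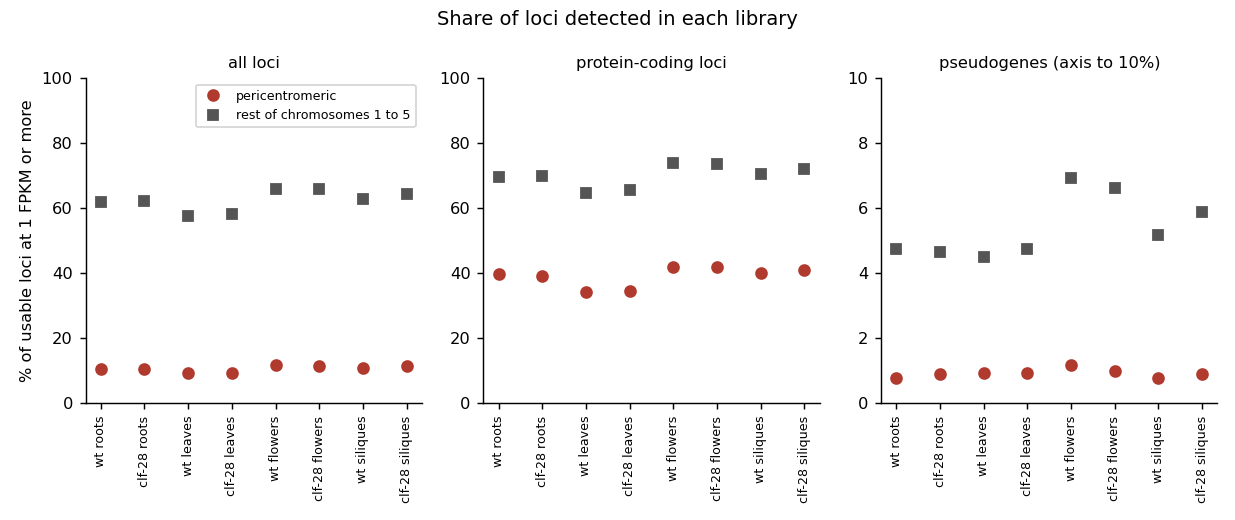
Share of loci at 1 FPKM or more in each of the 8 libraries (y axis, percent of loci with a usable status), for pericentromeric members (circles) and the rest of chromosomes 1 to 5 (squares), split into all loci, protein-coding loci and pseudogenes. Members lay between 9.29% and 11.7% for all loci and the rest between 57.7% and 66.1%, with little change between wt and clf-28 of an organ.

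Members nearer the window midpoints were less often detected when the 5 windows were pooled. Within 1 Mb of the window midpoints 168 of 2121 members (7.92%) were detected, and farther out 430 of 1812 (23.7%). Within classes, protein-coding members were detected at 35.9% of 298 near the midpoint and 60.2% of 585 farther out, and pseudogenes at 0.951% and 2.67%. The nearer members include those of the mitochondrial insertion on chromosome 2 described below, whose values are uncertain. In bins of 0.5 Mb that lay wholly inside a window, the lowest share on chromosome 1 was 0% and the highest 41.8%. The lowest bin lay next to the midpoint on chromosomes 1, 2 and 5 and was centred 0.75 Mb before it on chromosomes 3 and 4. The corresponding ranges were 3.23% to 18.8% on chromosome 2, 6.61% to 19.7% on chromosome 3, 0.952% to 43.3% on chromosome 4 and 3.19% to 30.8% on chromosome 5. The window edges were not sharp: of the 10 loci just inside the edges 2 were detected, and of the 10 just outside 4 were. The medians of those edge loci ran from 0 to 18.2 FPKM inside and from 0 to 11.4 FPKM outside.

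**Figure D2:**
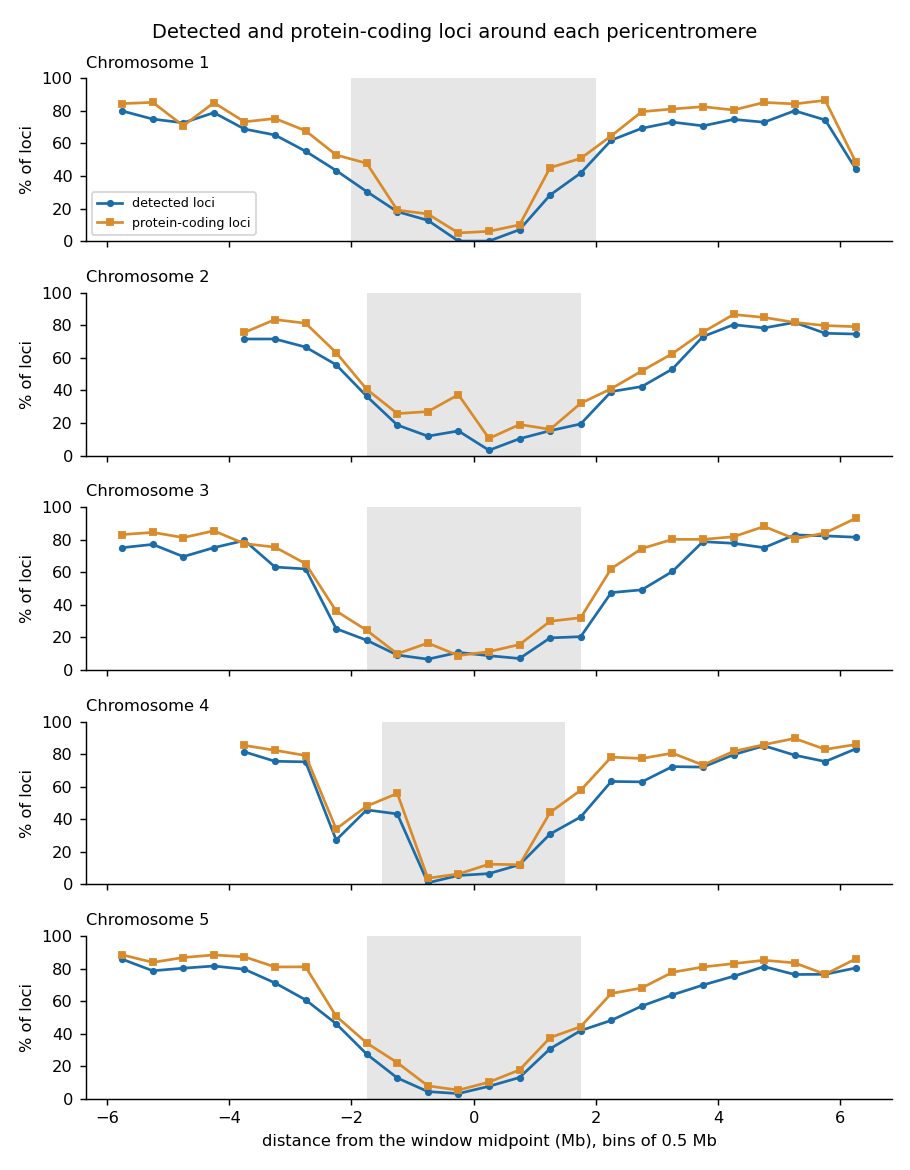
Share of loci detected at 1 FPKM or more in at least 1 library (circles) and share that were protein coding (squares) in bins of 0.5 Mb, by distance from the window midpoint, for each chromosome; the shaded band is the window. Among the window bins the lowest detected share lay within 0.75 Mb of the midpoint on each chromosome, at 0% on chromosome 1, and neither share changed evenly with distance: on chromosome 2 the protein-coding share was 25.8% at 1.25 Mb and 37.4% at 0.25 Mb before the midpoint. The latter bin overlaps the mitochondrial insertion described below. On chromosome 4 both shares also dipped in the bin centred 2.25 Mb before the midpoint, outside the window.

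Strongly expressed housekeeping and photosynthetic genes also lay in these windows. The member with the highest median was UBQ10, a polyubiquitin gene widely used as a reference, at 1148, 762, 545 and 669 FPKM in wt roots, leaves, flowers and siliques and at 1138, 1021, 679 and 831 in clf-28. It was followed by PSBS (AT1G44575), which is needed for heat dissipation of excess light, and by PSBX (AT2G06520) and PSBQ-2 (AT4G05180), both subunits of photosystem II. UBQ11, the cytosolic ribosomal protein gene AT1G43170, the chloroplast glutamine synthetase GS2, the lipid-transfer family gene AT2G10940 and the Calvin cycle gene GAPB completed the first 9. AT1G41880, which encodes a ribosomal protein of the L35Ae family, and the chloroplast ribosomal protein genes RPL21C and RPS1 made up the first 12.

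Among members, as among all tested loci, more differed between organs than between genotypes. Roots and leaves came from plants of 2 weeks on plates, flowers and siliques from plants of 5 weeks in soil. Age and growth medium therefore cannot be told apart from organ in these comparisons and in those of single genes below. In limma on log2(FPKM + 1), with both genotypes of an organ as its 2 libraries, 404 of the 593 tested members (68.1%) passed an adjusted p of 0.05 between organs, beside a background of 72.1% of all 24078 tested loci. Against the mean of the other organs, 161 members were higher and 141 lower in roots (backgrounds 30.0% and 26.5%), and 55 were higher and 260 lower in leaves (12.4% and 41.2%). In flowers 181 were higher and 57 lower (28.9% and 11.0%), and in siliques 82 were higher and 96 lower (13.2% and 16.6%). A tested member had a usable status in all 8 libraries and reached 1 FPKM in at least 1, so these counts leave out the majority, which stayed under 1 FPKM.

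The 5 members with the largest root difference were AT2G05510, described with its cluster below, and 4 loci that encode wall or secreted proteins. EXT13, an extensin of the cell wall, stood at 140 and 176 FPKM in wt and clf-28 roots and at 0.346 FPKM or less in the other 6 libraries. The log2 difference of roots from the other organs was 7.22 ± 0.15 (SE), with an adjusted p of 0.00028 for the organ F test. A merged locus of a pair of extensin-like genes, AT4G08400 and AT4G08410, stood at 93.1 and 110 FPKM in roots and at 0.216 FPKM or less elsewhere. AT4G07820, of the CAP family of secreted proteins, stood at 102 and 83.4 FPKM in roots. AT3G32980, a class III peroxidase gene, stood at 1078 and 814 FPKM in roots, and at 19.8 FPKM in both leaf libraries. These 4 loci were far above every other organ in both genotypes.

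Of the 5 members with the largest leaf difference, GRP3 and AT2G05540 are described with their cluster below. NIA2, the major nitrate reductase of the plant, stood at 558 and 664 FPKM in wt and clf-28 leaves and at 142 and 138 FPKM in roots. It was at 15.6 to 32.6 FPKM in flowers and siliques, and its leaf difference was 3.89 ± 0.22 (SE, adjusted p 0.0022 in limma). PSBX stood at 2509 and 1915 FPKM in leaves, at 552 to 1233 FPKM in flowers and siliques and at 27.9 and 13.0 FPKM in roots. PSBQ-2 reached 2511 and 2578 FPKM in leaves, against 17.3 and 5.46 FPKM in roots. All 3 genes had leaf values above the 6 other libraries.

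Among the 5 members with the largest flower difference was a pollen gene, PRK2A. HA6, a plasma membrane proton pump gene, stood at 64.8 and 42.3 FPKM in wt and clf-28 flowers and at 0.0277 FPKM or less in every other library. PRK2A, a receptor kinase gene, stood at 43.5 and 56.3 FPKM in flowers, against 4.18 and 1.82 FPKM in wt and clf-28 siliques. AT1G35490, a bZIP family gene, had 66.5 and 71.4 FPKM in flowers and AT1G44542, a cyclase family gene, had 70.5 and 86.1 FPKM. The pollen coat gene GRP17, outside the windows, was also highest in flowers. It was lower in clf-28 flowers (563 FPKM in wt and 333 in clf-28), as was HA6, whereas PRK2A, AT1G35490 and AT1G44542 were higher there. Which floral cells carried these transcripts was not tested. A locus that joins AT5G33365 with the GDSL lipase gene AT5G33370 stood at 484 and 335 FPKM in flowers, and in siliques it was at 172 FPKM in wt and 5.79 FPKM in clf-28.

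Among the 5 members with the largest silique difference, 3 encode small cysteine-rich proteins. LCR30, the first of them, stood at 71.7 and 134 FPKM in wt and clf-28 siliques, at 3.93 and 3.86 FPKM in flowers, and was listed at 0 in roots and leaves. The defensin-like genes AT2G12475 and AT5G32619 followed it: AT2G12475 was at 25.5 and 39.4 FPKM in siliques, and AT5G32619, in a locus that spans 12277538 to 12420282 on chromosome 5, was at 55.1 and 16.9 FPKM. AT1G43667, of the lipid-transfer and seed albumin superfamily, stood at 18.4 and 15.8 FPKM and TLP5, a tubby-like protein gene, at 110 and 91.6 FPKM. These 5 were above all other organs in both genotypes, although OLEO1 differed between the 2 silique libraries as given above.

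**Figure D3:**
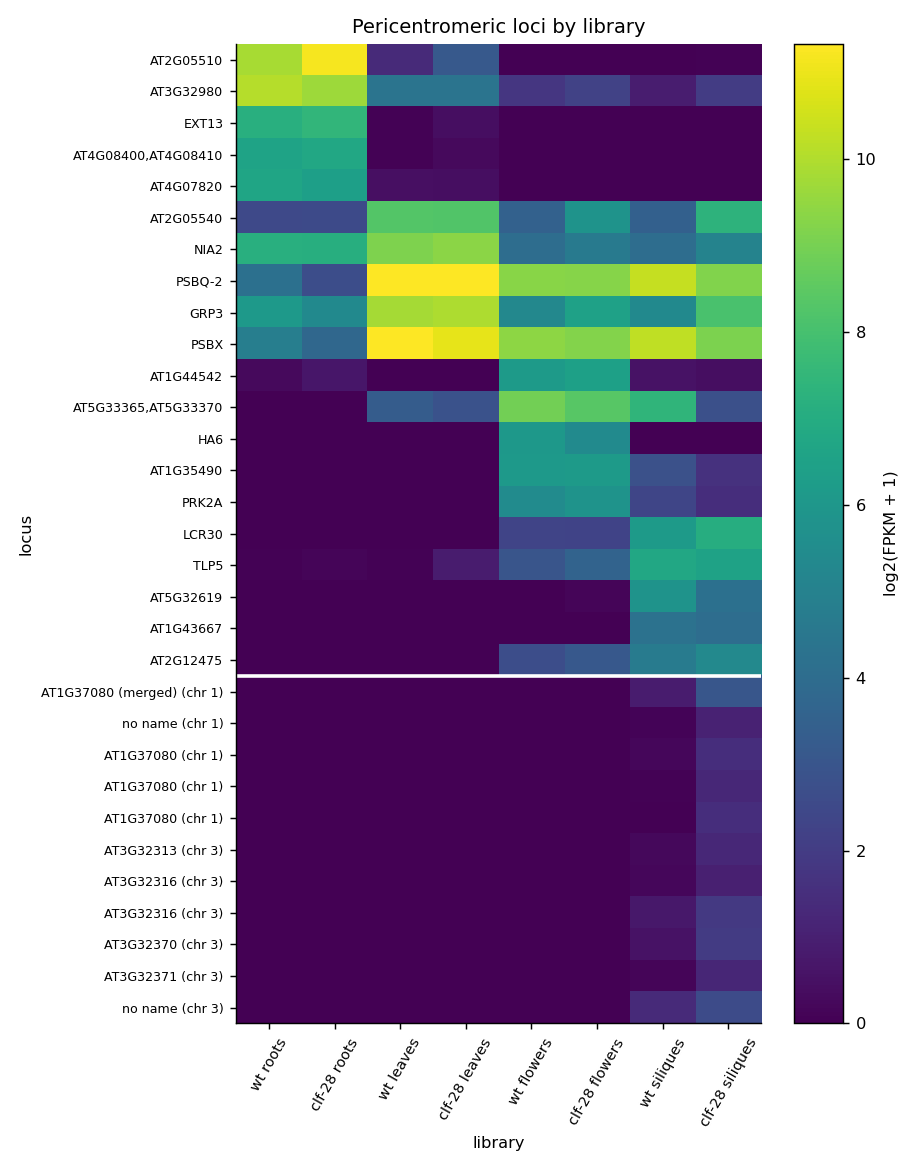
Level on the log2(FPKM + 1) scale (colour) of pericentromeric loci (rows) in the 8 libraries (columns): above the white line the 5 members with the largest difference for each organ, below it the rows of 2 stretches, on chromosomes 1 and 3, that reached 1 FPKM in siliques. EXT13 at 140 and 176 FPKM in roots and HA6 at 64.8 and 42.3 FPKM in flowers mark the sharpest cases, and the rows below the line were at 0.0126 FPKM or less outside siliques.

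A single cluster at the edge of the chromosome 2 window held genes for 5 glycine-rich proteins between 2015706 and 2056823, highest in different organs: AT2G05510 and AT2G05530 in roots, GRP3 and AT2G05540 in leaves, and AT2G05580 in clf-28 siliques. AT2G05510 stood at 914 and 2327 FPKM in wt and clf-28 roots, at 1.52 and 8.03 FPKM in leaves and at 0.0429 FPKM or less in flowers and siliques. GRP3 (AT2G05520, 2026162 to 2027117), which encodes a small wall-associated glycine-rich protein, reached 895 and 987 FPKM in leaves against 66.9 and 40.1 FPKM in roots. In flowers GRP3 had 38.5 and 87.5 FPKM, and in siliques 40.9 and 272 FPKM, the only silique pair among members whose intervals, as the authors deposited them, did not overlap. AT2G05540 had 310 and 300 FPKM in leaves, 10.5 and 55.0 FPKM in flowers, and 10.2 and 159 FPKM in siliques. AT2G05580 was at 0.00649 FPKM in wt siliques and 679 FPKM in clf-28 siliques, and at 2.54 FPKM or less in every other library. AT2G05530 reached 1.5 FPKM, in wt roots. The 6 pseudogenes between AT2G05540 and AT2G05580 stayed at 0.0141 FPKM or less in all 8 libraries, a silent block between expressed neighbours. The silique values of GRP3, AT2G05540 and AT2G05580 were higher in clf-28 together with OLEO1, and its part in them was not tested.

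Between genotypes, no member passed an adjusted p of 0.05 in limma over the 4 organs, which serve as the only replication of clf-28. The background was 0.0% of 24078 loci. At an unadjusted p of 0.05, 20 members were higher (3.37% of 593, background 5.49%) and 42 were lower (7.08%, background 6.3%). The median difference of clf-28 from wt was -0.0042 on the log2 scale, with an SD of 0.0127 over the medians of the 4 organs, beside a median of -0.014 for the other tested loci. Differences of the same sign in all 4 organs were seen for 121 members (20.4%), of which 47 were higher and 74 lower, beside 24.6% of the other tested loci. Neither share is a result about the members, given how close the backgrounds lie.

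RAP2.6 (AT1G43160, chromosome 1, 16263813 to 16264917), an ethylene response factor gene known from stress and wound responses, had the smallest p. It stood at 17.0, 0.0791, 0.88 and 2.21 FPKM in wt roots, leaves, flowers and siliques and at 92.1, 6.10, 6.20 and 9.88 FPKM in clf-28. The clf-28 value was the higher in each organ, with log2 differences of 2.37, 2.72, 1.94 and 1.76. The mean difference was 2.20 ± 0.19 (SE, n = 4 organs), with an unadjusted p of 9.6e-05 and an adjusted p of 0.414 in limma. On the scale of log2(FPKM + 5) it was 1.31 and on that of log2(FPKM + 0.1) 3.09. Its neighbour AT1G43170, a ribosomal protein gene that starts at 16266641, stood at 686, 401, 635 and 407 FPKM in wt and at 468, 278, 643 and 418 FPKM in clf-28.

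A pair of genes of jasmonate metabolism, OPR3 and ILL6, differed mainly in roots and leaves. OPR3 (AT2G06050, chromosome 2, 2359114 to 2362302), which encodes the reductase that commits oxophytodienoate to jasmonate synthesis, stood at 24.0 and 117 FPKM in wt and clf-28 roots. In leaves the pair was 11.8 and 126 FPKM, in flowers it stood at 42.8 and 48.4 FPKM, and in siliques at 31.6 and 38.4 FPKM. The intervals in the authors' deposited table did not overlap between genotypes for OPR3 in roots and leaves, making it the only member apart in those organs (1 higher and 0 lower in each). Over all measured loci the shares apart were 0.0304% higher and 0.00507% lower in roots, 0.054% and 0.0% in leaves, 0.0143% and 0.00478% in flowers, where no member was apart, and 0.196% and 0.00479% in siliques, where GRP3 was the only one. ILL6 (AT1G44350), a hydrolase of jasmonate and auxin conjugates, showed the same shape, with 3.48 and 27.8 FPKM in roots and 7.37 and 51.3 FPKM in leaves. Its flower values were 31.2 and 47.5 FPKM, and its silique values 27.6 and 34.6 FPKM. The difference of the clf-28 effect between the older organs and the seedling organs was -2.55 for OPR3 and -2.21 for ILL6 on the log2 scale, with unadjusted p of 0.004 and 0.00029 and an adjusted p of 0.832 for both in limma. That test called 0 members after adjustment and 28 at an unadjusted p of 0.05, beside a background of 4.34%. JAZ11, a repressor of jasmonate signalling, was at 9.80 to 19.0 FPKM in all 8 libraries, with a log2 difference of 0.04 ± 0.11 (SE).

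AT2G06045, a pseudogene that ends at 2359113 where the OPR3 locus begins, stood at 0.0392 and 1.08 FPKM in wt and clf-28 roots and at 0.0423 and 1.18 FPKM in leaves. Its flower values were 0.061 and 0.19 FPKM and its silique values 0.065 and 0.527 FPKM, in organs where OPR3 differed by 0.17 and 0.27 on the log2 scale. Its mean log2 difference of 0.69 ranged from 0.18 to 2.26 with the pseudocount. It lies past the 3′ end of OPR3, and without a stated strand of the reads its transcripts cannot be told apart from those of OPR3. The genes on its other side, AT2G06025 and AT2G06040, differed by 0.48 or less on the log2 scale in each organ. MYB74, an R2R3 MYB factor gene, stood at 7.32 and 23.0 FPKM in wt and clf-28 roots and at 1.78 and 32.3 FPKM in leaves, and at 2.20 FPKM or less in flowers and siliques. PRODH1, the first enzyme of proline breakdown, stood at 65.3, 40.7, 107 and 233 FPKM in wt roots, leaves, flowers and siliques and at 267, 23.0, 256 and 571 FPKM in clf-28, lower in leaves and higher in the other organs. MYB74 and PRODH1 did not pass the adjusted test (adjusted p 0.428 and 0.47 in limma).

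Among members lower in clf-28 in all 4 organs, SAPX and MCM2 had the smallest unadjusted p in limma. SAPX (AT4G08390, chromosome 4, 5314905 to 5317456), a stromal ascorbate peroxidase that removes hydrogen peroxide in the chloroplast, stood at 74.3, 34.8, 75.1 and 64.2 FPKM in wt roots, leaves, flowers and siliques. In clf-28 it stood at 52.7, 18.2, 34.7 and 36.9 FPKM, below wt in each organ, with a mean log2 difference of -0.81 ± 0.12 (SE, n = 4 organs, unadjusted p 0.001 and adjusted p 0.414 in limma). MCM2 (AT1G44900), a subunit of the replicative helicase, stood at 11.2, 7.55, 18.6 and 11.3 FPKM in wt and at 6.88, 3.61, 13.8 and 7.31 FPKM in clf-28, a log2 difference of -0.62 ± 0.12 (SE). The endoplasmic reticulum chaperone gene BIP1, the STAY-GREEN-like gene AT1G44000, AT1G36280 of the aspartase-like family and the glucuronidase gene GUS3 followed, with log2 differences of -0.44, -0.61, -0.45 and -0.45. On the other side PHL1, a regulator of phosphate starvation responses, UMAMIT22, of an amino acid transporter family, the zinc-ribbon gene AT1G44414 and a merged locus with AT5G28610 differed by 0.34, 0.63, 0.67 and 0.54. With pseudocounts of 5 and 0.1 the last 3 ranged from 0.38 to 0.77, 0.29 to 0.98 and 0.33 to 0.77. Each of these kept its sign across the 4 organs, and none reached an adjusted p of 0.05.

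**Figure D4:**
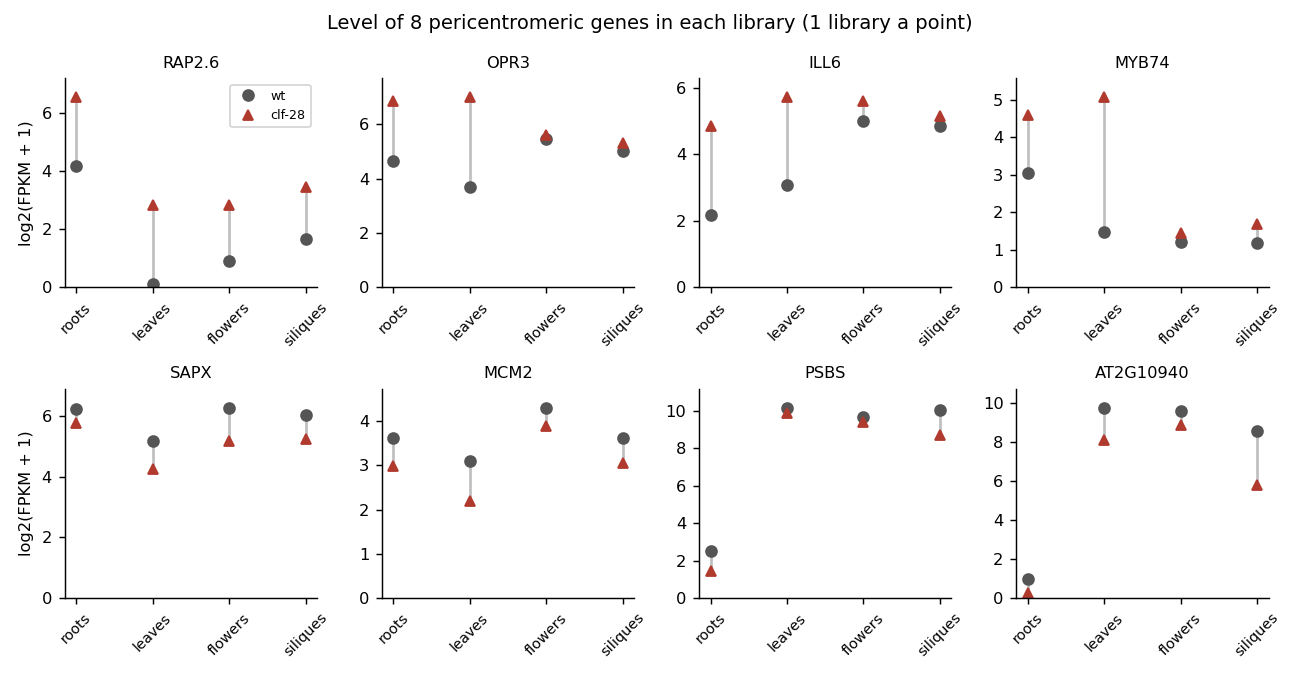
Level on the log2(FPKM + 1) scale of 8 members in the 4 organs, with wt as circles and clf-28 as triangles, 1 library each and no error bars; a grey line joins the libraries of an organ. RAP2.6 was higher in clf-28 by 1.76 to 2.72 in every organ, OPR3 and ILL6 mainly in roots and leaves, and SAPX, MCM2, PSBS and AT2G10940 were lower in clf-28 in every organ.

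The role lists were chosen with earlier results of these data known, so their counts and medians describe the listed genes and are not independent evidence. The backgrounds at an unadjusted p of 0.05 were 5.49% higher and 6.3% lower over all tested loci. The list for photosynthesis and the plastid, which leaves out PSBX and RPL21C, had 15 genes and 14 rows in the windows, GAPB having a second row that was not tested. Of the 12 tested, none passed the adjusted test, 4 were lower at an unadjusted p of 0.05 and 0 were higher, and the median log2 difference was -0.39, beside -0.0042 for all tested members. Among these 12, 5 were lower in all 4 organs, 0 were higher in all 4, and the rest were mixed, as CAC2, which was higher in siliques by 0.99. PSBS stood at 1121 and 937 FPKM in wt and clf-28 leaves, at 821 and 677 in flowers, at 1044 and 420 in siliques and at 4.68 and 1.76 in roots. GAPB stood at 839 and 761 FPKM in leaves, at 361 and 265 in flowers, at 606 and 260 in siliques and at 8.23 and 3.13 in roots. Both were lower in clf-28 in 4 of 4 organs, as was the green-tissue marker CA1 outside the windows, with the values given above. RBCS1A, the other marker listed for green leaves, was lower in clf-28 roots (89.3 FPKM in wt and 52.7 in clf-28) but higher in clf-28 flowers (5998 and 7073). It had no usable value in either leaf library or in wt siliques. Any part of green tissue content in these values was not tested. AT2G10940 (chromosome 2, 4310412 to 4312103) was also lower, at 844 and 269 FPKM in wt and clf-28 leaves, at 769 and 465 in flowers and at 370 and 53.5 in siliques, with a mean log2 difference of -1.47 ± 0.38 (SE, n = 4 organs, adjusted p 0.414 in limma).

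Of 9 tested genes for cell division, chromatin and the transcription machinery, 3 were lower in clf-28 at that level and 0 were higher: MCM2, the kinetochore gene MIS12 and the nucleolar gene YAO. Their log2 differences were -0.62, -0.28 and -0.30, and the median of the list was -0.25. Of 15 tested loci of transcription and development 2 were higher and 0 lower, RAP2.6 and PHL1, and of 10 tested hormone and signalling genes 2 were higher and 0 lower, ILL6 and MEKK3, a mitogen-activated protein kinase kinase kinase. The medians of these lists were 0.05 and 0.13. The 10 tested genes of primary metabolism and transport had none at that level and a median of 0.02. The reference and wall genes had 2 of 7 lower, AT2G10940 and the wall enzyme gene XTH4, and a median of 0.17. QQS, an orphan gene found only in Arabidopsis thaliana, stood at 2.52, 12.8, 30.8 and 13.1 FPKM in wt roots, leaves, flowers and siliques and at 5.29, 17.6, 19.6 and 21.1 FPKM in clf-28.

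Within single organs, where 1 library stands against 1 and no test is possible, the share of members past a 2-fold difference followed the background. In roots 19 of 426 measured members (4.46%) were at least 2-fold higher in clf-28 and 7 were at least 2-fold lower, beside backgrounds of 5.55% and 1.22%. In leaves 18 of 378 were higher and 7 lower (5.45% and 1.43%), and in flowers 7 of 469 were higher and 6 lower (1.51% and 1.04%). Siliques held the most, with 52 of 468 higher (11.1%) and 31 lower (6.62%), beside backgrounds of 11.4% and 8.0%. SAD6, a stearoyl-ACP desaturase gene, was at 0.762 and 41.2 FPKM in wt and clf-28 siliques, and ANNAT1, a calcium-binding annexin gene, was at 286 and 60.3 FPKM. The silique libraries also differed in OLEO1, and the part of seed content in these counts was not tested.

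**Figure D5:**
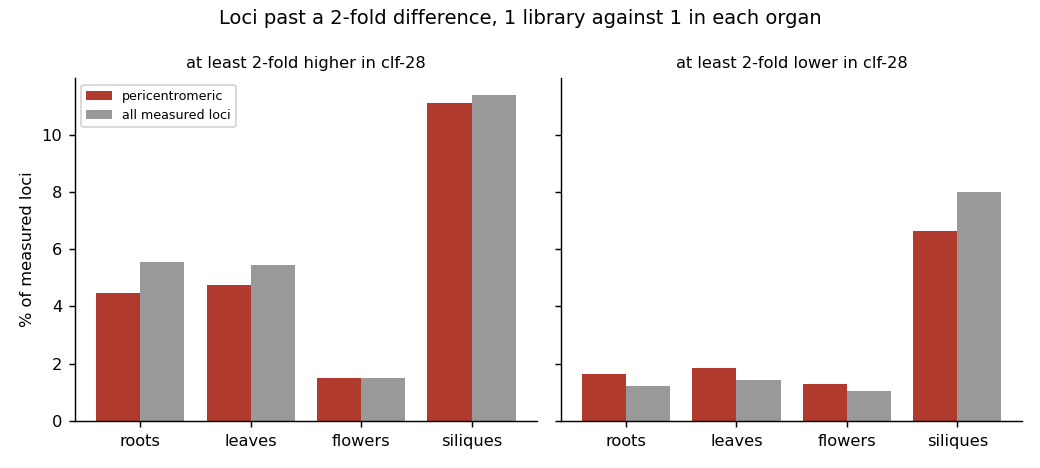
Share of measured loci at least 2-fold higher (left) or lower (right) in clf-28 than in wt, by organ, on the log2(FPKM + 1) scale, for pericentromeric members and for all measured loci; bars start at 0 and have no error, since each organ has 1 library per genotype. The silique bars were the tallest for members (11.1% and 6.62%) and for all loci (11.4% and 8.0%).

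Few pseudogene members passed a 2-fold difference outside siliques. With both kinds of pseudogene counted, 26 were measured in roots and none passed 2-fold, 25 in leaves with 2 higher, and 36 in flowers with 1 higher and 1 lower. Of the measured pseudogenes elsewhere, 5.85% were higher and 0.585% lower in roots, 6.08% and 2.70% in leaves, and 3.06% and 2.18% in flowers. In siliques 33 were measured, of which 9 (27.3%) were at least 2-fold higher in clf-28 and 0 lower, beside 14.3% and 3.57% of 196 pseudogenes elsewhere. All 9 were at 0.648 FPKM or less in wt siliques and so were measured only through their clf-28 value, and several are rows of the same locus, so the count supports no difference of pseudogenes as a class. None of the 9 lay in the mitochondrial insertion described below.

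Those 9 rows fell on few places and were low. On chromosome 1, between 14099614 and 14113509, the table lists 7 overlapping rows around AT1G37080, and 3 rows under that name were among the 9. They stood at 0.16, 0.046 and 0 FPKM in wt siliques and at 1.79, 1.38 and 1.76 FPKM in clf-28 siliques, while a merged row over the same bases was at 0.807 and 7.12 FPKM. On chromosome 3, between 13265495 and 13295266, 6 of 11 rows reached 1 FPKM in siliques and all 6 were higher in clf-28. Among them AT3G32313 was at 0.188 and 1.39 FPKM, AT3G32370 at 0.48 and 2.97 FPKM and AT3G32371 at 0.117 and 1.30 FPKM, and an unnamed row over the bases of AT3G32371 was at 1.52 and 5.07 FPKM. Only the unnamed row reached 1 FPKM in wt siliques, so for the rest the direction was fixed by that threshold. RefSeq describes AT3G32313 and AT3G32371 as pseudogenes of the MADS-box gene AGAMOUS-like 28 and AT3G32370 as a pseudogene of chromatin remodeling 34. In the 6 libraries of roots, leaves and flowers no row of either stretch exceeded 0.0126 FPKM. AT2G06985 on chromosome 2, in the row that starts at 2893061, was at 3.73 FPKM in clf-28 siliques and at 0 in the other 7 libraries, and AT4G06748 was at 0.354 and 3.85 FPKM in siliques. These stretches were picked after their values were seen, overlapping rows share reads, and the silique libraries differed in OLEO1 as well.

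A few pseudogenes were strongly transcribed in all 8 libraries. SADHU1-1 (AT2G10410), of the Sadhu family of non-coding retrotransposons, stood at 136, 70.3, 77.5 and 76.6 FPKM in wt roots, leaves, flowers and siliques and at 119, 65.8, 96.0 and 79.6 FPKM in clf-28. Its mean log2 difference was 0.02 ± 0.11 (SE, n = 4 organs, adjusted p 0.928 in limma). AT2G11240 stood at 36.2 to 76.7 FPKM, highest in roots, and AT1G35612, which RefSeq describes as a pseudogene of the Ulp1 protease family, stood at 38.8, 59.7, 14.0 and 42.4 FPKM in wt roots, leaves, flowers and siliques and at 38.8, 55.9, 29.4 and 40.2 FPKM in clf-28, so that it passed 2-fold in flowers. Of the non-coding RNAs AT4G08035 stood at 32.6 to 66.2 FPKM. AT2G09795, which overlaps AT2G09800 in antisense, stood at 25.5, 15.8, 25.9 and 23.0 FPKM in wt and at 21.8, 12.5, 21.1 and 17.3 FPKM in clf-28, a log2 difference of -0.30 ± 0.08 (SE, adjusted p 0.414 in limma). Reads of that pair cannot be told apart without strand. AT4G08093, a transcribed pseudogene, was at 1.65 and 0.208 FPKM in wt and clf-28 flowers and at 0.662 FPKM or less elsewhere.

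Members with near-identical copies were uncertain. Copies in the nuclear genome were searched for tested members only, so reads lost to or shared among copies of the other members were not examined. On chromosome 2 between 3239657 and 3507323, 106 members were covered over at least 90% of their length by the mitochondrial genome at 95% identity or more, the known nuclear insertion of mitochondrial DNA. Their FPKM summed to 17.7 to 61.6 per library, 4 to 14 of them reached 1 FPKM, and the median log2 difference of the 18 tested was -0.01. The deposited values cannot tell transcripts of the insertion from those of mitochondria. On chromosome 5, the DUF784 genes AT5G34881, AT5G34883, AT5G34885, AT5G34887 and AT5G34905 share sequence of 98% identity or more, and their single values may trade reads. They were at 0 in roots and leaves, at 0.783 to 3.12 FPKM in wt flowers and at 1.71 to 5.19 FPKM in clf-28 flowers, and at 1.37 FPKM or less in siliques. Of the pseudogenes between them, AT5G34890, AT5G34895 and AT5G34900 were at 0.00654 FPKM or less in all 8 libraries, and AT5G34903 was at 0.0246 and 0.049 FPKM in wt and clf-28 flowers and at 0 elsewhere.

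The status column left 17 members without a usable value in at least 1 library. ACC1, the cytosolic acetyl-CoA carboxylase gene, failed in 5 libraries and stood at up to 65.3 FPKM in the other 3. PTM, a chloroplast-to-nucleus signalling factor gene, failed in 2 and stood at up to 29.6 FPKM. Both were left out of the fit. A further 3323 members had usable values but stayed under 1 FPKM in all 8 libraries, and they also entered no test.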

How the data were processed

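Total RNA was sequenced after TruSeq RNA library preparation, per the labels' protocols. The authors aligned reads with TopHat and quantified loci with Cufflinks on TAIR10, per the submitters' processing notes; versions, strand use and depth are not given in the sources used here. The deposited table gives FPKM, the lower and upper bound of an interval for each FPKM, and a status (OK, LOWDATA, HIDATA or FAIL) for every locus and library, per the file headers; the level of the interval is not stated. FPKM hold no counts, so depth is unknown and no counting interval is given.

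Values with status OK were used as deposited. Limma 3.58.1 (R 4.3.3) was fitted to log2(FPKM + 1) of the 24078 loci that were usable in all 8 libraries and reached 1 FPKM in at least 1, with organ as a block, so that fold changes understate those of low genes. Benjamini-Hochberg adjustment ran over all of these loci. The organ terms used both genotypes, and a second fit compared the clf-28 effect between flowers with siliques and roots with leaves. P-values measure spread over organs and single libraries, not over replicate plants. On simulated data the fit recovered 87% of 200 loci changed between genotypes and 94% of 200 changed in roots, of 24078. The simulated genotype change was the same size in every organ and larger than every mean clf-28 difference named above on the log2(FPKM + 1) scale. Simulated loci had independent normal noise and no organ differences apart from the root change. These shares therefore do not give the power for differences of the size seen here. Within an organ, loci with 1 FPKM or more in either library were described by log2((clf-28 + 1)/(wt + 1)), with 2-fold as the rule of size and no test.

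Gene classes, names, products and sequences came from RefSeq TAIR10.1, whose nuclear chromosomes share TAIR10 coordinates; 3693 of the 3765 members with a single name matched, 98.0% of matched loci overlapped the RefSeq gene of that name, and the same start and end were found for 86.4% of pseudogene loci and 21.3% of all matched loci. Copies were found with blastn 2.17.0. Organ markers, role lists, motifs and members were chosen with earlier results of these data known. Named genes were the 12 members of highest median FPKM, up to 5 per organ with the largest difference, the 6 smallest p in each direction over organs among those of the same sign in 4 organs, the largest ratios per organ, and the leading pseudogenes and non-coding RNAs; genes of the role lists and the silique stretches were added. Python 3.11.15 with pandas 2.3.3 was used for the rest.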

Additional observations from a re-analysis of the deposited data

How the results depend on the processing

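Genotype calls after adjustment stayed at 0 members in limma under every alternative run. The 12 members named for clf-28 over organs were each followed in 9 or 10 of these runs. They kept their direction there, with adjusted p between 0.365 and 0.723 in limma. In the genotype fits organ was the block throughout, so wt and clf-28 were compared within each organ. The labels give no replicate numbers, so no further pairing was possible.

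The 2-fold counts changed with the pseudocount, the windows and the rule of size. With 0.1 in place of 1, 13 members were lower in clf-28 roots, 17 lower in leaves, 16 higher and 14 lower for flowers, then 58 lower for siliques. With 5, the counts were 9 higher and 1 lower for roots, 11 and 4 for leaves, 4 and 2 for flowers, then 17 and 19 for siliques. With no filter on low values 637 members passed between organs and 82 had an unadjusted p under 0.05 for the stage difference. With 5 FPKM required, 3 were lower in flowers and 27 higher in siliques, and the median clf-28 difference was -0.024; it was -0.040 under quantile scaling. With windows narrowed by 500000 bases at each end, the median number detected was 168, 27 had an unadjusted p under 0.05 for clf-28, 177 passed between organs and 7 for the stage difference, and the 2-fold counts were 3 and 2 for roots, 5 and 2 for leaves, 1 and 2 for flowers, then 26 and 13 for siliques; fewer loci were counted there by construction. Requiring the authors' intervals to be apart left 1 higher and 0 lower for roots, 1 and 0 for leaves, 0 and 0 for flowers, then 1 and 0 for siliques.

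Leaving out each organ in turn (leave-one-out) gave 27 to 58 members with an unadjusted p under 0.05 for clf-28, lowest without leaves and 38 without roots, 200 to 405 between organs, lowest without roots and 269 without leaves, and a median difference of -0.027 to 0.013. The cause of these shifts was not tested. The organs are the only replicates of genotype, with 3 residual degrees of freedom, and depth behind each FPKM is unknown, so a low value cannot be given a counting error. The remaining alternatives (106 values) stayed within 1.5 times or within the spread of the reported value.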
